A study of Caenorhabditis elegans with 10 samples.

Results

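The comparison described here sets ribosome footprints of *Caenorhabditis elegans* after 3 days at 4°C against those after 1 day at 4°C. Its members are 4 of the 10 samples of the series, 2 for each day, which the deposited table holds as 1 pooled column per day. All animals were whole wild-type N2 worms, grown at 20°C to 1-day-old adults, held at 10°C and then moved to 4°C. The labels give the time at 10°C as 2 hours in the protocol and as 3 hours in the treatment tag. Collections at 20°C, after the step at 10°C and after 5 days at 4°C supply 3 further columns, whose levels are given beside the members' values. Since the later animals were also older, and no animals kept at 20°C for equal times are in the table, days in the cold and elapsed time cannot be told apart.

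Ribosome profiling sequences the short stretches of mRNA that translating ribosomes shield from nuclease, so that the footprints on a coding sequence follow how much of that mRNA is being translated. Worms brought to 4°C through a milder step stop growing and laying eggs but survive for days and resume life when warmed. Cold slows enzymes, stiffens membranes and disturbs protein folding, and the classical answers to such damage are the heat shock response in the cytosol, driven by HSF-1, and the unfolded protein response in the endoplasmic reticulum (ER), in which the sensor IRE-1 splices the mRNA of the transcription factor XBP-1.

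The values were FPKM, the footprints scaled by the length of the coding sequence and by the total of the column. They measure a gene's share of translation, so a fall in all protein synthesis would leave them unchanged, and footprints were not set against mRNA levels here. In whole animals, fewer cells of a type and less RNA per cell cannot be told apart. The table lists 31865 transcripts of 19985 genes. For each gene the transcript with the highest mean over the 5 columns was taken, and 9945 genes with 1 FPKM or more on average were kept. The FPKM values were whole multiples of 1 step per column once multiplied by coding length, which gave whole counts. If the pooled replicates were averaged rather than summed, a count may stand for more than 1 footprint and the counting intervals may be too wide. The columns held 2657757 counts on day 1 and 2981339 on day 3, against 675550 at 20°C, 486109 at 10°C and 3058810 on day 5. Zeros and low values at 20°C and 10°C therefore rest on fewer counts.

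Because replicates were pooled, no spread between animals could be computed, and there is no test, p-value or SD for any difference. A gene was called when log2(FPKM + 0.5) differed by a factor of at least 2. It was called clearly higher or lower when it also had at least 10 counts over both days and the 95% exact interval of the ratio, which covers counting error only, left out 1. Folds in the text are plain ratios of FPKM with that interval in brackets.

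Relative footprint levels were alike on day 1 and day 3 for most genes. Of the 8144 genes with at least 10 counts, 77.7% lay within 1.5-fold and 91.3% within 2-fold, and the median log2 difference over all kept genes was 0.04. On day 3, 535 genes were at least 2-fold higher (5.38% of kept genes) and 674 at least 2-fold lower (6.78%). Clear calls numbered 205 higher (2.52% of genes with 10 counts) and 334 lower (4.1%). These shares are the background against which each group below is read.

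Rises and falls differed in number and in their level at 20°C and 10°C. The 205 clearly higher genes had a median level of 3.09 FPKM at 20°C, 3.45 at 10°C, 5.06 on day 1, 17.5 on day 3 and 10.8 on day 5. They took 0.347% of all counts on day 1 and 1.01% on day 3, and 14 of them rose at least 8-fold. The 334 clearly lower genes had medians of 20.4 FPKM at 20°C, 22.98 at 10°C, 25.1 on day 1, 7.15 on day 3 and 3.72 on day 5. Levels on day 1 and day 3 are part of the call, so their difference between the sets is not a separate result. All genes with at least 10 counts had medians of 13.3 FPKM on day 1 and 13.5 on day 3. Their share of counts went from 1.98% to 0.615%, and 17 of them fell at least 8-fold.

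**Figure D1:**
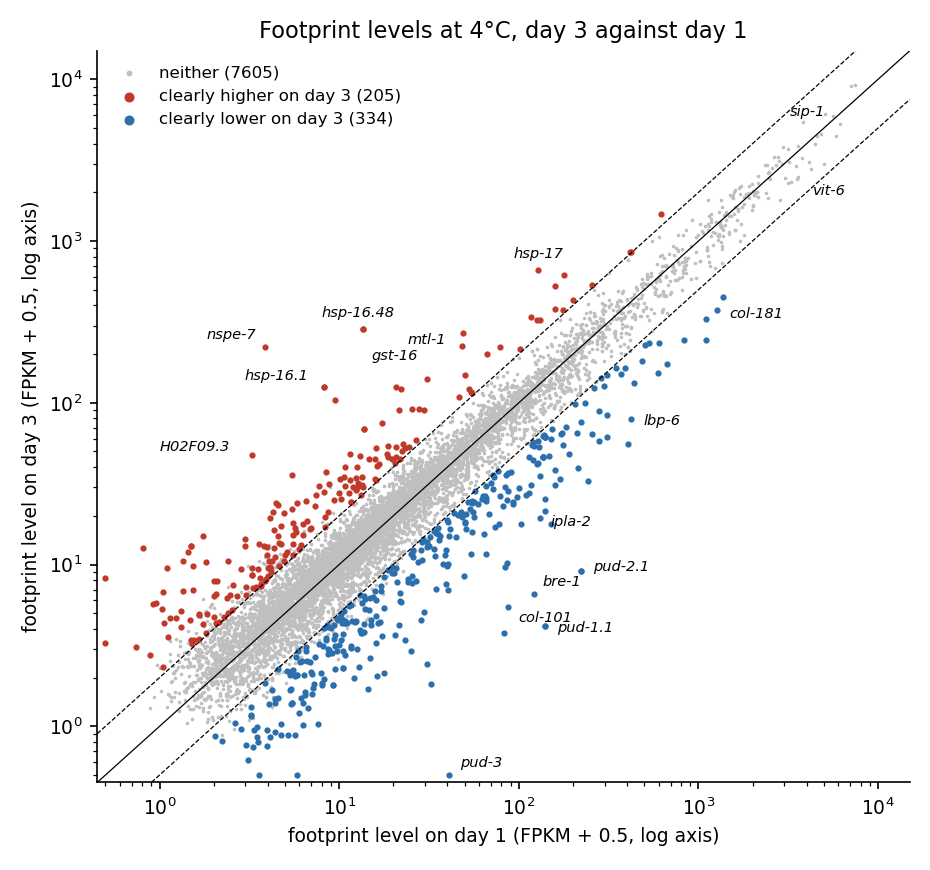
Footprint level on day 3 (vertical) against day 1 (horizontal), each as FPKM + 0.5 on a log axis, for the 8144 genes with at least 10 counts over both days. The solid line marks equal levels and the dashed lines 2-fold differences, and 205 genes (red) and 334 genes (blue) were clearly higher or lower.

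The small heat shock proteins, which hold unfolded proteins until they can be refolded, had the highest median of the 71 gene lists examined. Of 15 kept members, 9 were clearly higher and none clearly lower, and the group median was 2.36 on the log2 scale. Of the hsp-16 genes, hsp-16.1, hsp-16.48, hsp-16.49 and hsp-16.11 lie side by side on chromosome V, from 9087293 to 9090604 (WBcel235). hsp-16.48 and hsp-16.49 carry the same counts, as do hsp-16.1 and hsp-16.11, so each pair is a single measurement. The pair hsp-16.48 and hsp-16.49 stood at 3.43 FPKM at 20°C, 4.76 at 10°C, 13.1 on day 1, 283 on day 3 and 81.0 on day 5, on 15 counts for day 1 and 365 for day 3. Day 3 was thus the peak of the series for this pair. The other pair, hsp-16.11 with hsp-16.1, had the same shape with 7.73 FPKM on day 1, 126 on day 3 and 50.01 on day 5, a rise of 16.24-fold (8.35 to 36.2).

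The other members of the family did not peak together. hsp-17 was already translated on day 1, at 128 FPKM, and reached 658 on day 3 before 303 on day 5, a rise of 5.14-fold (4.33 to 6.15) on the most counts among the small heat shock genes that rose. hsp-12.6 and hsp-12.3, which encode short members of the family, had their highest values on day 5. hsp-12.6 went from 20.3 FPKM on day 1 to 124 on day 3 and 253 on day 5, and hsp-12.3 from 6.84 to 22.4 and 39.6. hsp-16.2, for which 1 count was seen on day 1 and 13 on day 3, rose by 11.6-fold with an interval of 1.74 to 493. hsp-16.41 had no count on day 1 and 10 on day 3. Taking 3 counts as the floor for a zero, it was at least 2.97-fold higher.

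The family also holds a member that dwarfs the rest. sip-1, a small heat shock protein of oocytes and embryos, had 6153 FPKM on day 1 and 5288 on day 3, a fold of 1.16 downward. It alone took 0.295% of all counts on day 1 and 0.254% on day 3. The 14 other members together, with shared counts entered once, took 0.0170% at 20°C, 0.0148% at 10°C, 0.0265% on day 1, 0.0745% on day 3 and 0.0478% on day 5. Levels of the constitutive members hsp-25 (161 and 145 FPKM) and hsp-43 (59.5 and 84.8 FPKM) stayed within 2-fold.

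Among the larger cytosolic chaperones, 2 of 19 were clearly higher, and these were F44E5.4 and F44E5.5, a pair of HSP70 genes with the same counts. They had 0 FPKM at 20°C, 1.06 at 10°C, 13.2 on day 1, 68.2 on day 3 and 79.6 on day 5, and the rise from day 1 was 5.17-fold (3.98 to 6.78). The abundant constitutive chaperones moved little: hsp-1, the main cytosolic HSP70, went from 2952 to 3826 FPKM (1.30-fold, 1.27 to 1.32), and hsp-90 from 1147 to 1435 (1.25-fold, 1.21 to 1.29). hsf-1 itself had 16.4 and 20.6 FPKM, and its interval of 0.948 to 1.67 included 1. Even so, 18 of the 19 members lay above 0, and the list took 0.996% of counts on day 1 (95% Wilson interval 0.984 to 1.01) and 1.29% on day 3 (1.28 to 1.30). The chaperonin CCT, the ring that folds actin and tubulin, had no call among 14 members with prefoldin and a median of 0.25. Its subunit cct-6 had 207 and 307 FPKM (1.48-fold).

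Chaperones of other compartments did not follow the hsp-16 genes. Of 25 mitochondrial chaperones and proteases none was called, with a median of 0.14. Of 42 genes for ER translocation, folding and degradation, none was higher and 2 were clearly lower, and the median was −0.13. These were dnj-7, an ER co-chaperone, at 15.3 and 6.36 FPKM (2.40-fold, 1.51 to 3.91), and sec-61.G, a subunit of the translocation channel, at 527 and 233 (2.26-fold, 1.84 to 2.78). Protein disulfide isomerases differed from each other: pdi-1 had 603 and 582 FPKM, whereas pdi-2 had 629 and 364 (1.73-fold, 1.62 to 1.84).

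**Figure D2:**
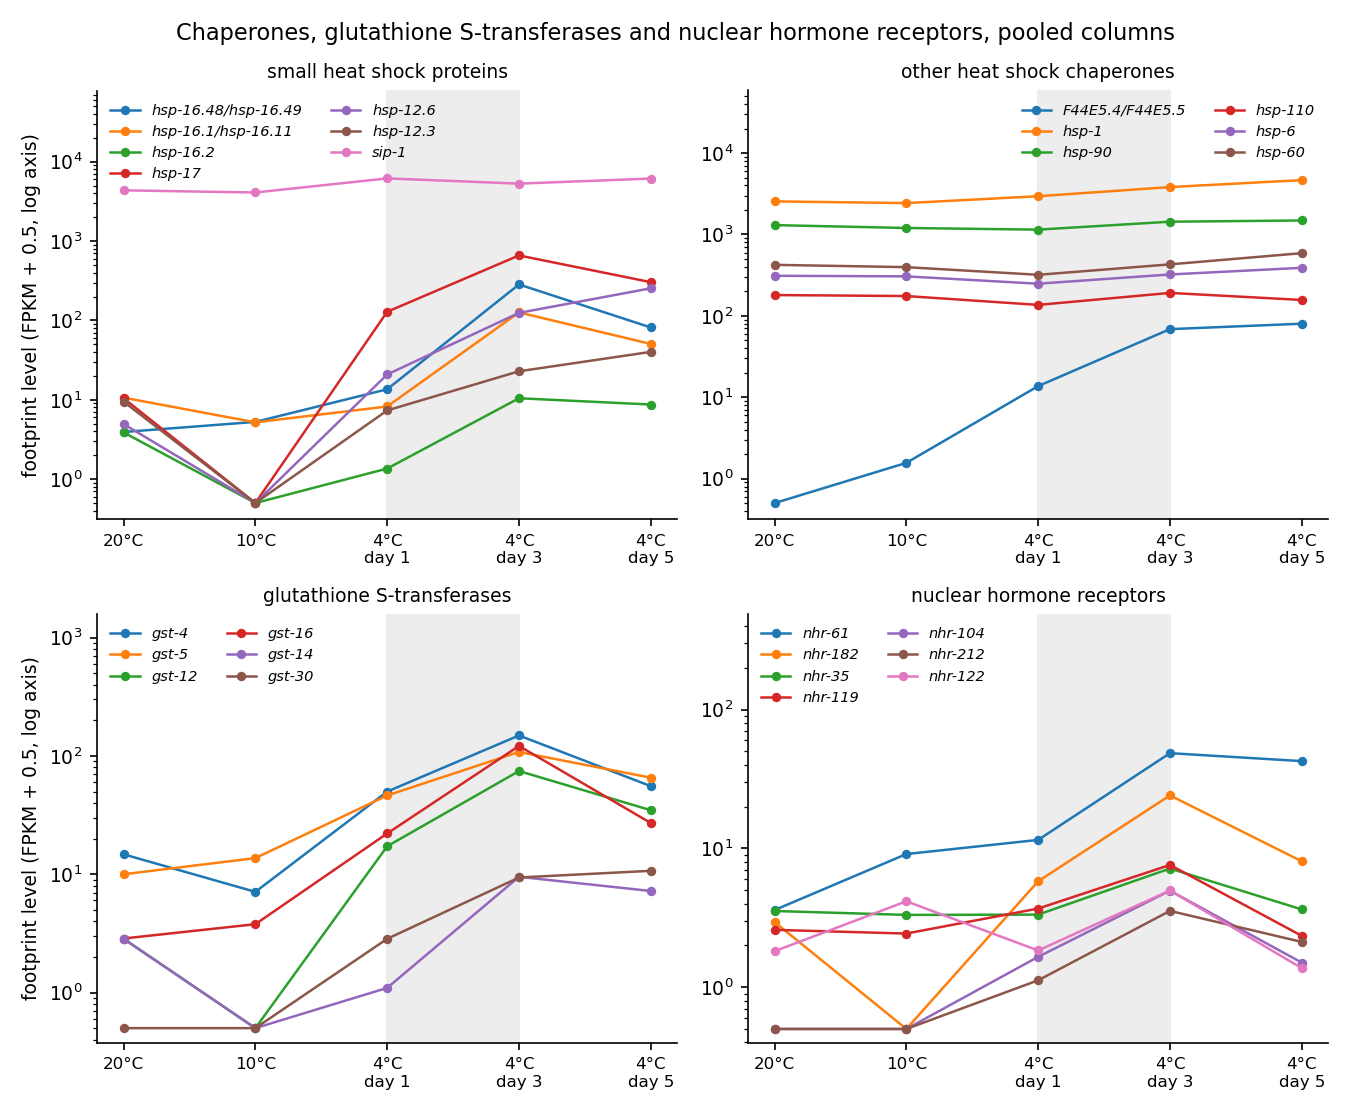
Footprint level (FPKM + 0.5, log axis) in each of the 5 pooled columns, with the interval from day 1 to day 3 shaded; each line is 1 gene, or 1 pair of genes that carry the same counts. The hsp-16 pairs, gst-16 and nhr-182 have their highest value on day 3, hsp-12.6 and hsp-12.3 on day 5, and sip-1, hsp-1 and hsp-90 change little.

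Genes that depend on IRE-1 gave a different picture from the cytosolic heat shock genes. A list of IRE-1-dependent genes induced by tunicamycin, a drug that blocks protein glycosylation, was taken by the study from earlier work. Of its 116 kept members, 17 were clearly lower on day 3 and 1 clearly higher. That is 15.0% of its members with 10 counts, beside 4.1% of all genes, and 86 of the 116 lay below 0 with a median of −0.27. A second list of IRE-1-dependent genes, from lipid bilayer stress, had 4 clearly higher and 4 clearly lower among 120 members and a median of 0.09. Each is 4% of its members with 10 counts. The remaining list, from another cooling protocol, had 1 and 2 among 20 (5.26% and 10.5% of those with 10 counts) and a median of 0.08.

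The leading falls of the tunicamycin list mostly had their highest value on day 1. bre-1, a GDP-mannose dehydratase that makes the precursor of fucose, had 6.69 FPKM at 20°C, 16.7 at 10°C, 121.7 on day 1, 6.06 on day 3 and 2.36 on day 5. Its counts went from 358 to 20. ger-1, which encodes the next enzyme of GDP-fucose synthesis and was looked up after bre-1 had been seen to fall, had 16.3 FPKM on day 1 and 3.89 on day 3 (4.18-fold, 2.11 to 9.02). gale-1, the epimerase between UDP-glucose and UDP-galactose, went from 59.6 FPKM at 20°C to 172 on day 1 and 63.9 on day 3 (2.69-fold, 2.28 to 3.195). ipla-2, a phospholipase of the patatin-like class, had 2.30 FPKM at 20°C, 131 on day 1, 18.98 on day 3 and 11.8 on day 5.

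dsc-4 of the same list had been falling since 20°C. It encodes the worm's microsomal triglyceride transfer protein, which loads lipid onto lipoproteins, and had 19.9 FPKM at 20°C, 11.1 on day 1, 2.63 on day 3 and 0.732 on day 5 (4.22-fold, 2.58 to 7.19). gad-3 had 3.89 FPKM on day 1 and 0.889 on day 3. Not all of the list moved: srp-7, a serpin, had 80.7 FPKM at 20°C, 843 on day 1, 786 on day 3 and 547 on day 5. A separate list holds ER stress sensors and named targets of more than IRE-1. In it 1 of 13 was clearly lower, 7.69% beside 4.1% of all genes with 10 counts, and none clearly higher. The fall was in cbp-3, at 100 and 29.1 FPKM. The study treats cbp-3 as a target of PEK-1, another ER stress sensor, and not of IRE-1. The members hsp-4, hsp-3, xbp-1 and ire-1 were not clearly called. lips-11, a lipase gene listed at 0 at 20°C and 10°C, had 188 FPKM on day 1, 164 on day 3 and 56.9 on day 5.

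Glutathione S-transferases, which couple electrophiles to glutathione, were called mostly upward. Of 29 kept, 6 were clearly higher and 2 clearly lower, which is 31.6% higher among those with 10 counts against a background of 2.52%. gst-16, gst-12 and gst-14 are neighbours on chromosome II between 13614781 and 13624440. gst-16 had 2.36 FPKM at 20°C, 3.28 at 10°C, 21.6 on day 1, 121 on day 3 and 26.6 on day 5 (5.60-fold, 3.92 to 8.19), and gst-12 had 16.7 and 74.0 (4.43-fold, 2.93 to 6.90). gst-14 rested on 1 count on day 1 and 17 on day 3. gst-4, the usual reporter of the transcription factor SKN-1, had 14.2 FPKM at 20°C, 49.4 on day 1, 148 on day 3 and 55.0 on day 5. All 4 of these had lower values on day 5 than on day 3. The abundant gst-1 had 852 and 1161 FPKM (1.36-fold) and was not called, while gst-26 and gst-42 were clearly lower, at 14.3 and 2.13 and at 16.9 and 3.12 FPKM.

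The other detoxifying families differed in their share of clear falls, which was 4.1% over all genes with 10 counts. Of 26 cytochrome P450s, which oxidise foreign and lipid compounds, none was clearly higher and 4 were clearly lower, 20% of those with 10 counts. Among the 4 was cyp-35C1 with 23 counts on day 1 and 4 on day 3 (6.45-fold, 2.204 to 25.7). Of 27 UDP-glucuronosyltransferases 1 was clearly lower (5.26% of those with 10 counts), ugt-19, with 7.77 and 1.47 FPKM. Among 23 antioxidant enzymes 1 was clearly lower (4.55%), msra-1, a methionine sulfoxide reductase, at 125 and 41.4 FPKM, and sod-1 had 594 and 586. Of 12 metal response genes, mtl-1, a metallothionein of chromosome V, rose from 47.9 to 224 FPKM (4.67-fold, 3.13 to 7.21). cdr-4 fell from 153 to 68.8 (2.22-fold, 1.84 to 2.69), whereas mtl-2, the other metallothionein, had 480 and 342.

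Nuclear hormone receptors, the large worm family of ligand-regulated transcription factors, were called in 1 direction. Of 74 kept members, 8 were clearly higher and none clearly lower, 14.04% of the 57 with 10 counts, and 55 of the 74 lay above 0. nhr-61 had 3.09 FPKM at 20°C, 11.01 on day 1, 48.0 on day 3 and 42.02 on day 5. nhr-182 had 2.45, 5.29, 23.6 and 7.57 FPKM in the same columns. Levels of the rest were low: nhr-35 had 2.83 and 6.66 FPKM, nhr-119 had 3.18 and 7.10, and nhr-212 had 2 and 11 counts. nhr-130 had no count on day 1 and 11 on day 3, at least 3.27-fold higher. nhr-49, a regulator of fat burning and desaturation, was among the most counted members and stood at 26.8 and 32.98 FPKM, with an interval of 0.948 to 1.61.

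**Figure D3:**
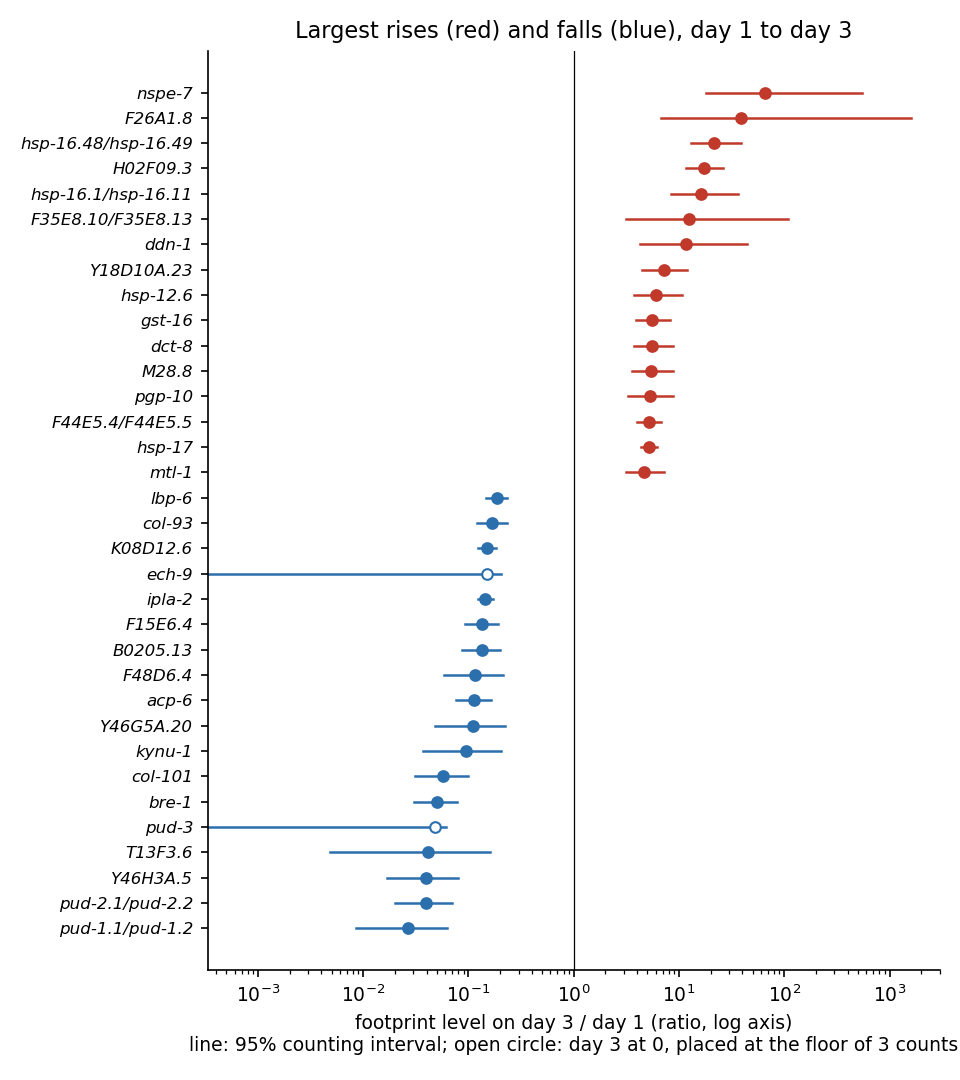
Ratio of the footprint level on day 3 to that on day 1 (log axis) for the genes with the 20 largest rises (red) and 20 largest falls (blue) by the interval bound nearest 1, genes with the same counts on 1 line. Bars are 95% counting intervals, and open circles mark pud-3 and ech-9, which had no count on day 3 and are placed at the floor of 3 counts.

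Other large rises were seen in small peptides and in genes of no list. nspe-7, 1 of a family of short nematode-specific peptides, had 2 counts on day 1 and 148 on day 3. Its neighbours nspe-2, nspe-1 and rgs-4 were also clearly higher, and the run of 4 genes spans 12619173 to 12672415 on chromosome II. nspe-1 had 54.8 FPKM at 20°C, 20.9 on day 1, 90.1 on day 3 and 25.7 on day 5 (4.31-fold, 2.29 to 8.82). The more abundant nspe-6 had 302 and 400 FPKM and was not called. All 7 kept members lay above 0, and 3 of them were clearly higher. H02F09.3 on chromosome X (1568677 to 1573060) had 0.387 FPKM at 20°C, 0 at 10°C, 2.75 on day 1, 47.1 on day 3 and 18.1 on day 5. With 538 counts on day 3, its rise of 17.1-fold had an interval of 11.7 to 26.02. Y18D10A.23 on chromosome I rose from 4.98 to 35.5 FPKM (7.13-fold, 4.47 to 11.99), and pgp-10, an ABC transporter of the P-glycoprotein class, from 1.90 to 10.0 (5.26-fold, 3.30 to 8.80). dct-8 had 48.4 and 270 FPKM and ddn-1 had 1.24 and 14.4.

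Among the listed genes, those of the cuticle, of fat burning and of histones and the pud genes held many of the falls, while 190 of the 334 clearly lower genes were in no list. The pud genes encode small proteins of unknown function that lie close together on chromosome V (2322038 to 2330930). All 6 kept members were at least 2-fold lower and 5 were clearly lower, with a median of −4.83. pud-1.1 and pud-1.2, which carry the same counts, had 500 FPKM at 20°C, 438 at 10°C, 139 on day 1, 3.68 on day 3 and 0.717 on day 5. The pair pud-2.1 and pud-2.2 had 407, 349, 221, 8.66 and 2.81. pud-3 had 56 counts on day 1 and none on day 3, at least 20.9-fold lower against the floor of 3 counts. As 2 pairs carry the same counts, the 5 clear calls were 3 distinct measurements.

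Cuticle collagens, which build the worm's outer coat and are made in the hypodermis, had more clear falls than any other list. Of the 86 that were kept, 38 passed 2-fold downward and 33 did so clearly, which is 50% of those with 10 counts, and none was at least 2-fold higher. The median was −0.92, 81 of 86 lay below 0, and the genes' share of all counts was 2.32% at 20°C, 2.33% at 10°C, 0.607% on day 1 (95% Wilson interval 0.598 to 0.616), 0.200% on day 3 (0.195 to 0.205) and 0.0623% on day 5. The largest of the clear falls was 17.5-fold, in col-101.

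The collagens reached day 3 by different courses. col-181, col-122, col-106 and col-184 still had high levels on day 1, and most of their fall came later. col-181 had 2293 FPKM at 20°C, 1262 on day 1, 374 on day 3 and 92.6 on day 5 (3.38-fold from day 1, 3.14 to 3.64). col-184 had 636, 671, 174 and 32.7 FPKM in those columns (3.85-fold, 3.47 to 4.29). col-20, col-93, col-140, col-8 and col-101 had lost most of their level by day 1 and went on falling. col-20 had 1820 FPKM at 20°C, 170 on day 1, 33.3 on day 3 and 10.2 on day 5, and col-101 had 919, 86.8, 4.97 and 1.04 (17.5-fold from day 1, 10.2 to 32.5). col-92, col-93 and col-94 are neighbours on chromosome III (10982139 to 10987873) and were all clearly lower.

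Not every gene of the cuticle fell. Among 21 other cuticle collagens and cuticle enzymes, 3 were clearly lower and none higher, among them skpo-3, a peroxidase, with 34 counts on day 1 and 13 on day 3. skpo-1, a peroxidase with more counts, had 126 and 133 FPKM, and dpy-18, a subunit of the collagen prolyl hydroxylase, had 15.5 and 22.8. Basement membrane genes had no call among 9, and the collagen IV chain let-2 had 17.9 and 19.6 FPKM. Of 6 hypodermis markers only col-19 was clearly lower, itself a cuticle collagen, at 37.2 and 9.64 FPKM. elt-3, a transcription factor of the hypodermis, had 14.4 and 24.6 FPKM, and lin-26 had 7.34 and 9.34.

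**Figure D4:**
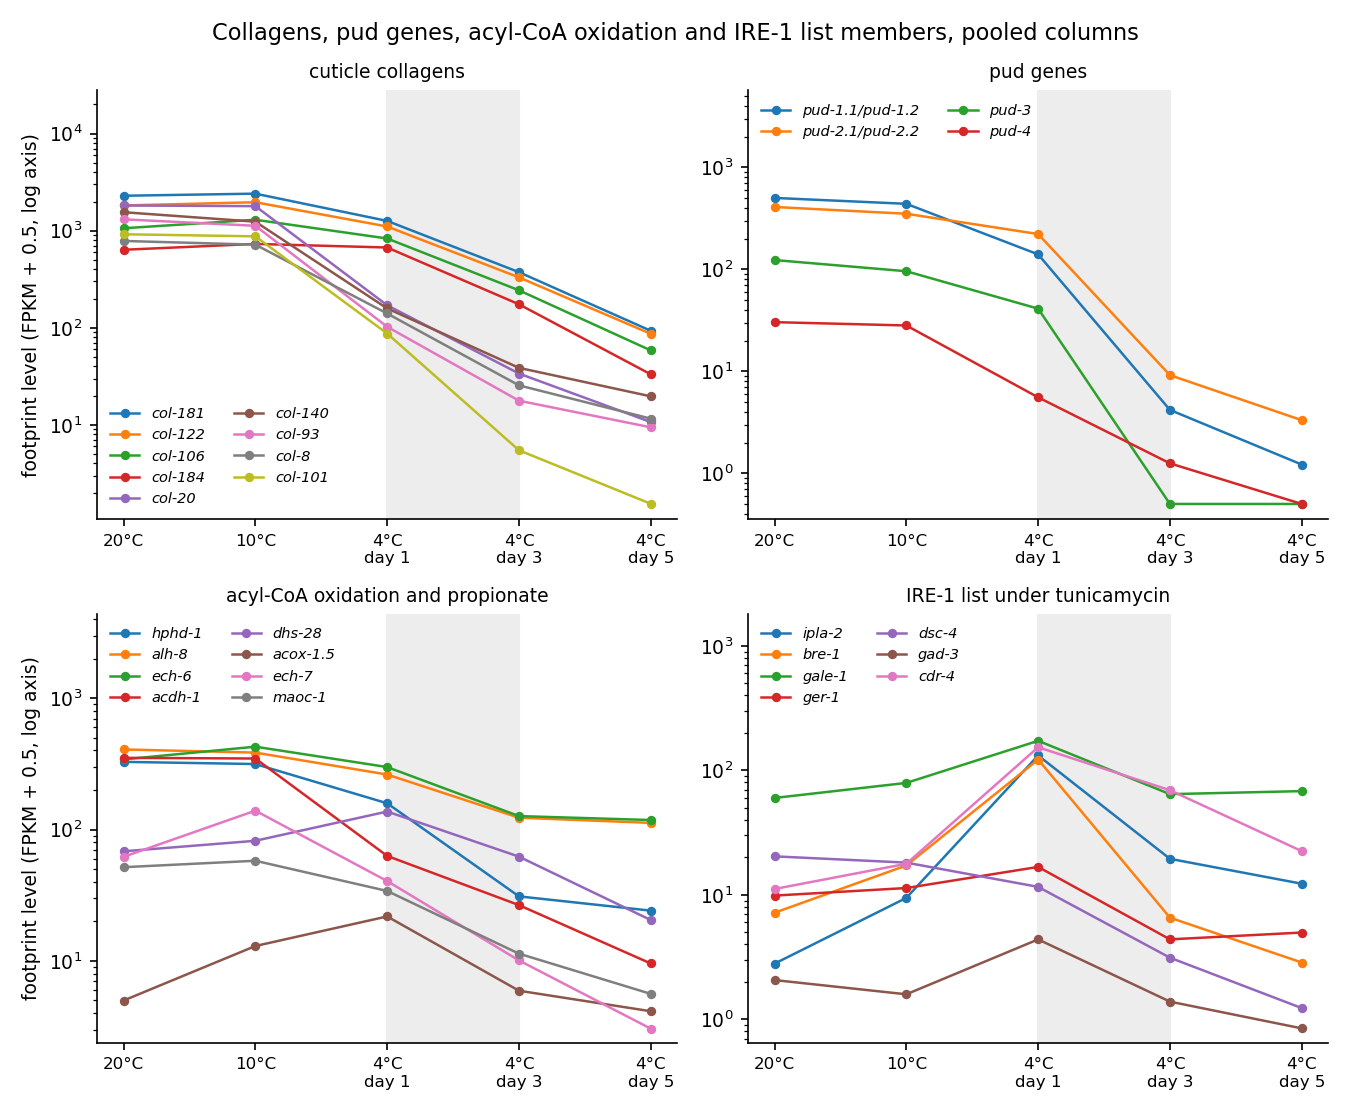
Footprint level (FPKM + 0.5, log axis) in each of the 5 pooled columns, with the interval from day 1 to day 3 shaded; each line is 1 gene, or 1 pair with the same counts. The collagens and pud genes are lower in each later column from day 1 on or at 0, whereas bre-1, ipla-2 and gale-1 have their highest value on day 1.

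Enzymes that break down fatty acids were lower on day 3. Of 48 kept genes for acyl-CoA activation and beta-oxidation, 14 were clearly lower (31.8% of those with 10 counts) and none clearly higher, and 36 lay below 0 with a median of −0.54. Several were enzymes of the peroxisomal pathway that shortens the side chains of ascaroside pheromones. dhs-28 had 67.7 FPKM at 20°C, 137 on day 1, 61.7 on day 3 and 19.9 on day 5 (2.22-fold, 1.89 to 2.60). maoc-1 had 51.2, 33.6, 10.8 and 5.10 FPKM in those columns (3.09-fold, 2.00 to 4.91), and acox-1.1 had 12.62 on day 1 and 3.46 on day 3 (3.65-fold, 2.18 to 6.35). The thiolase daf-22, which ends each round of that pathway, was looked up after these values were seen and had 57.4 and 43.9 FPKM, not a call.

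Other oxidation genes fell further. ech-9, an enoyl-CoA hydratase, had 18 counts on day 1 and none on day 3, at least 6.73-fold lower. ech-7 had 61.4 FPKM at 20°C, 40.0 on day 1, 9.57 on day 3 and 2.54 on day 5 (4.18-fold, 2.59 to 7.03). The more abundant members kept closer to their day 1 level: kat-1, a mitochondrial thiolase, had 292 and 225 FPKM, acs-13 had 192 and 208, and acs-4 had 175 and 143. lbp-6, an intracellular fatty acid binding protein outside this list, had 490 FPKM at 20°C, 423 on day 1, 78.9 on day 3 and 34.5 on day 5 (5.36-fold, 4.30 to 6.75).

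Propionate can be broken down by a route that needs vitamin B12 and by a shunt that does not, and all clear falls were of shunt enzymes. Of 12 kept genes 4 were clearly lower: acdh-1, ech-6, hphd-1 and alh-8, all of the shunt, and acdh-1 and ech-6 are also in the list of beta-oxidation. hphd-1 had 327 FPKM at 20°C, 158 on day 1, 30.5 on day 3 and 23.6 on day 5 (5.18-fold, 4.27 to 6.33). acdh-1 had 351, 62.5, 26.1 and 9.05 FPKM (2.40-fold, 1.75 to 3.32), and alh-8 had 262 and 123 on days 1 and 3. hach-1, the remaining shunt enzyme, had 65.8 and 36.9 FPKM (1.79-fold lower, 1.41 to 2.26) and was not called. The genes of the B12-dependent route had other values: pcca-1 had 77.0 and 88.5 FPKM, pccb-1 had 162 and 169, and mmcm-1 had 57.2 and 56.6. The difference between the routes was not tested.

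The list of the methionine cycle and phosphatidylcholine synthesis had calls in both directions. sams-1, which makes the methyl donor S-adenosylmethionine, and cth-2, a cystathionine gamma-lyase, were clearly higher. cth-2 had 134 FPKM at 20°C, 159 on day 1, 380 on day 3 and 154 on day 5 (2.39-fold, 2.15 to 2.65). sams-1 had 105 FPKM at 20°C, 10.2 on day 1, 39.9 on day 3 and 9.71 on day 5, so that both had day 3 values above their neighbouring columns. pmt-2, which methylates phosphoethanolamine, and cept-1, a choline and ethanolamine phosphotransferase, were clearly lower, at 97.4 and 25.8 and at 6.35 and 1.98 FPKM. ahcy-1, which clears S-adenosylhomocysteine, had 703 and 481.

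Fatty acid desaturases, whose products keep membranes fluid, could hardly be compared between the days. Only 4 of 7 had 10 counts and none was clearly called. fat-6 had 138 FPKM at 20°C but 14.8 on day 1 and 10.95 on day 3, fat-7 had 4.44 and 4.62 on 12 and 14 counts, and fat-1 had 24.0 and 15.5 (1.54-fold, 1.08 to 2.22). Of 12 elongases and synthesis enzymes, 11 lay below 0 and elo-2 was clearly lower, at 14.6 and 4.07 FPKM. paqr-2, a sensor that keeps membranes fluid, had 11.9 and 17.7 FPKM and was not called.

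The yolk proteins took more footprints than any other list on day 1, and none of them was called. The 6 vitellogenins and the yolk receptor took 12.1% of all counts at 20°C, 10.6% at 10°C, 9.19% on day 1 (9.15 to 9.22), 6.50% on day 3 (6.47 to 6.52) and 2.26% on day 5. All 7 were below 0, with a median of −0.50. vit-6 went from 4126 FPKM on day 1 to 3087 on day 3 (1.34-fold, 1.32 to 1.35) and vit-2 from 3153 to 2280. vit-3, vit-4 and vit-5 are near-identical and may share footprints, so their separate values are uncertain. Among the other most counted genes, eef-1A.1, an elongation factor, had 7058 and 9057 FPKM (1.28-fold, 1.26 to 1.30).

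Histone genes were lower as a group. Of 72 kept, 17 were clearly lower and none higher, 23.9% of those with 10 counts, and 67 lay below 0 with a median of −0.67. Many histone genes are copies, and the 17 clear calls amounted to 13 distinct sets of counts. Most of them sit in clusters on chromosome V, such as his-6, his-7 and his-8 (8532715 to 8534977) and his-51 to his-54 (8849788 to 8854053). his-7 had 258 FPKM at 20°C, 166 at 10°C, 127 on day 1, 41.9 on day 3 and 48.5 on day 5 (3.04-fold, 2.17 to 4.32). With shared counts entered once, all kept histones took 0.733% of counts at 20°C and 0.549% at 10°C. Their share was 0.703% on day 1, 0.525% on day 3 and 0.851% on day 5, the highest of the series. The 17 clearly lower genes had medians of 136 FPKM on day 1, 56.8 on day 3 and 84.4 on day 5. The highly expressed his-58 and his-66, which carry the same counts, had 1658 and 1582 FPKM on days 1 and 3, and his-72, an H3.3 variant made outside S phase, had 1181 and 1310. Genes of DNA replication and the cell cycle had no call among 26 and a median of −0.03, and pcn-1, the replication clamp, had 581 and 582 FPKM.

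Most genes of the translation machinery stayed within 2-fold. Of 83 cytosolic ribosomal proteins 2 were at least 2-fold higher, though not clearly so. In that list 1 was clearly lower, rpl-1, which had 878 FPKM at 20°C, 369 on day 1 and 150 on day 3 (2.45-fold, 2.13 to 2.82). The group took 6.92% of counts on day 1 (6.89 to 6.95) and 7.22% on day 3 (7.19 to 7.25). Elongation factors had no call among 13 and a median of 0.25, initiation factors none among 39, aminoacyl-tRNA synthetases none among 31 and mitochondrial ribosomal proteins none among 71. In 26 genes of the nucleolus and of ribosome assembly 21 lay above 0 with a median of 0.39, and nol-56 and nol-58, core proteins of box C/D particles, had 261 and 357 and 146 and 197 FPKM. The proteasome had no call among 38, with a median of 0.13.

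Energy metabolism leaned downward by small amounts. Of 52 subunits of the respiratory chain and ATP synthase 38 lay below 0 with a median of −0.16, and the 1 clear fall was cox-14, with 25 counts on day 1 and 12 on day 3. Of 20 glycolytic genes 18 lay below 0 with a median of −0.25. pyk-2, a pyruvate kinase, was clearly lower at 20.4 and 7.26 FPKM (2.80-fold, 1.81 to 4.44), whereas pyk-1, the more abundant one, had 226 and 221. icl-1, the worm's glyoxylate cycle enzyme, which turns fat into sugar precursors, had 93.2 FPKM at 20°C, 172 on day 1, 64.8 on day 3 and 57.9 on day 5 (2.66-fold, 2.41 to 2.94). It was the only call among 23 genes of the citric acid and glyoxylate cycles, and aco-2, an aconitase, had 310 and 297 FPKM.

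Of 18 kept genes for amino acid breakdown, 2 were clearly higher and 3 clearly lower, with calls in both directions among enzymes of tyrosine. pah-1, which turns phenylalanine into tyrosine, had 40.9 FPKM at 20°C, 52.03 on day 1, 121 on day 3 and 49.97 on day 5 (2.32-fold, 1.96 to 2.75). tatn-1, tyrosine aminotransferase, had 54.1, 20.2, 52.9 and 34.9 (2.61-fold, 2.00 to 3.45). The next enzyme, hpd-1, was clearly lower, at 129 FPKM on day 1 and 52.5 on day 3 (2.46-fold, 2.06 to 2.94), and so was gst-42, which isomerises maleylacetoacetate. hgo-1 and fah-1, which complete the pathway and were looked up after these values were seen, had 28.3 and 16.8 and 44.0 and 37.1 FPKM and were not called. kynu-1, kynureninase of tryptophan breakdown, fell from 17.3 to 1.63 FPKM (10.6-fold, 4.86 to 27.3).

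Secreted peptides gave calls in both directions. Of 79 lysozymes and antimicrobial peptides, 5 were clearly higher and 7 clearly lower, and all of these were caenacin, fungus-induced or nlp peptides, none a lysozyme. nlp-33 had 308 FPKM on day 1 and 61.1 on day 3 (5.03-fold, 3.57 to 7.25) and nlp-24 had 502 and 228, while nlp-27 had 421 and 853 (2.03-fold, 1.74 to 2.37). Of the kept neuropeptide and insulin-like genes, 24 were at least 2-fold higher, 10 at least 2-fold lower and 88 neither. Of the 65 with 10 counts, 3 were clearly higher (4.62%) and 5 clearly lower (7.69%). The lists overlap, so that the calls of nlp-24, nlp-27 and nlp-33 count in both. flp-13, a peptide of the sleep-like state that follows stress, was picked after its values were seen and had 3.06 FPKM at 20°C, 10.9 on day 1, 27.1 on day 3 and 22.3 on day 5 (2.48-fold, 1.32 to 4.95). flp-10 fell from 86.7 to 28.0 (3.10-fold, 1.75 to 5.76).

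Autophagy genes, which serve the digestion of a cell's own parts, mostly lay above 0, 23 of 27, with a median of 0.28. vps-34, the lipid kinase that starts autophagosomes, rose from 7.82 to 19.3 FPKM (2.47-fold, 1.81 to 3.41) and epg-2 fell from 10.9 to 5.02. sqst-1, the cargo receptor p62, had 10.7 FPKM at 20°C, 192 on day 1, 264 on day 3 and 110 on day 5, and was not called. Of 12 aquaporins and ion pumps, aqp-11 was clearly higher at 12.99 and 29.5 FPKM. aqp-1, aqp-7 and aqp-10 were clearly lower, and aqp-7 had 86.3 and 36.4 (2.37-fold, 1.85 to 3.06). Of 17 genes listed as cold survival regulators none was called. That list also holds the cold shock domain genes cey-2, cey-3 and cey-4, whose part in cold survival is not shown here. zip-10, a bZIP factor, had 0 FPKM at 20°C, 148 on day 1, 138 on day 3 and 84.7 on day 5, and asp-17, an aspartyl protease, had 77.4 and 121.8 on days 1 and 3.

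**Figure D5:**
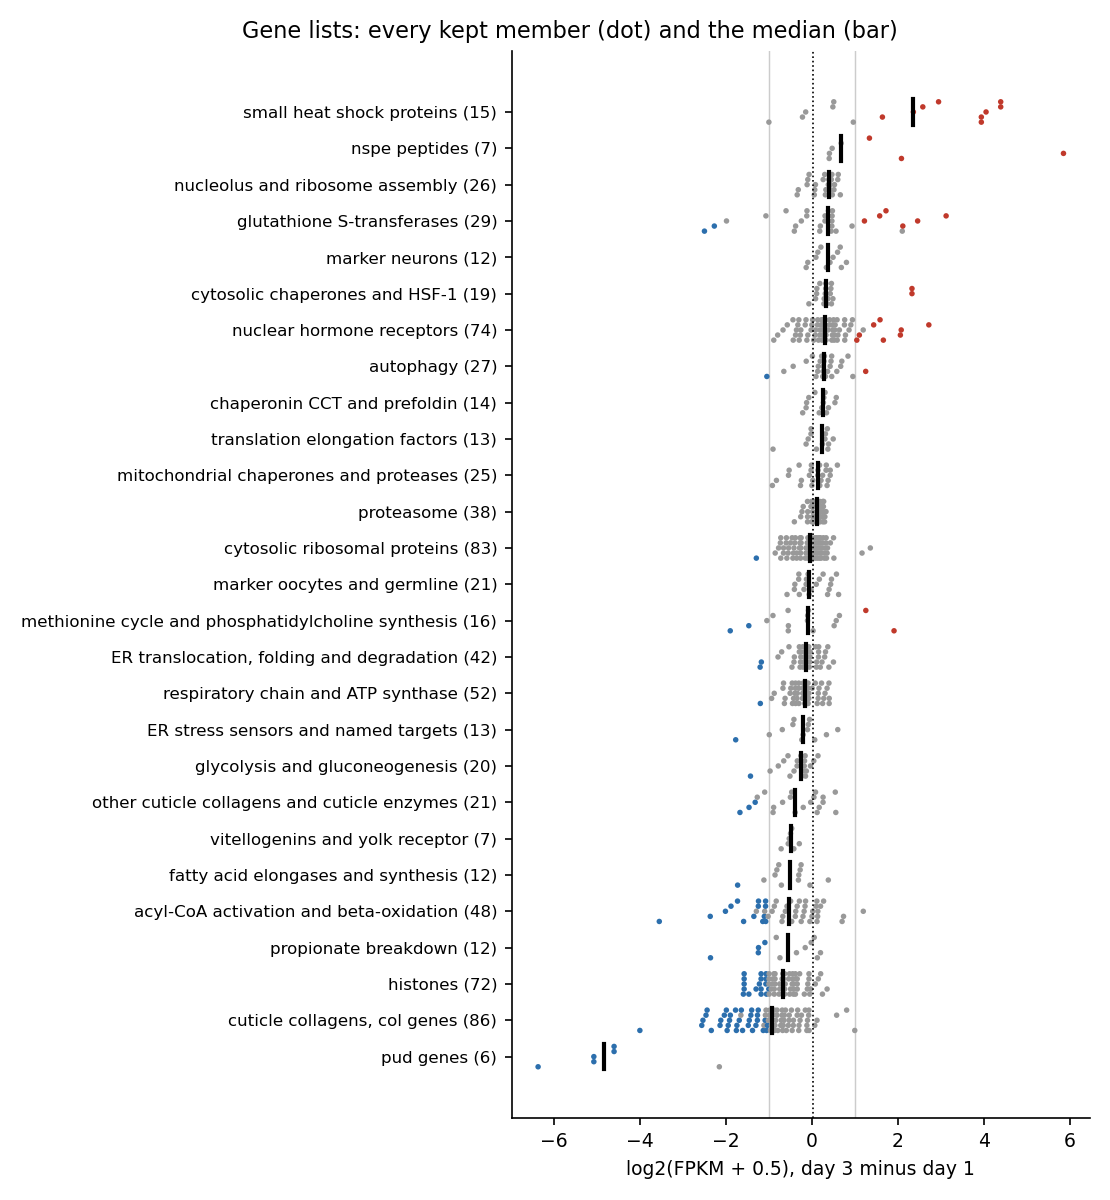
Difference in log2(FPKM + 0.5), day 3 minus day 1 (horizontal), for every kept member of the gene lists shown, with the list's median as a black bar and its number of kept members in parentheses; red and blue dots were clearly higher or lower. The dotted line is the median of all kept genes, 0.04, and the medians run from 2.36 for the small heat shock proteins to −4.83 for the pud genes.

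Tissue markers were set beside these results as whole lists. The intestine list had 2 clearly higher and 1 clearly lower of 15 and took 0.251% and 0.229% of counts on days 1 and 3. Muscle had 2 and 1 of 19 (0.258% and 0.249%), oocytes and germline 0 of 21 (0.430% and 0.397%), neurons 0 of 12 (0.0175% and 0.0215%) and sperm 0 of 64 clearly called (0.0393% and 0.0337%). Hypodermis markers took 0.00606% and 0.00426%, with 86 counts of col-19 on day 1 and 25 on day 3, and their part in the fall of the collagens was not tested. Markers of early embryonic transcription had a median of −0.82, with 8 of 17 at least 2-fold lower and 1 at least 2-fold higher. Of the 6 with 10 counts 3 were clearly lower and 1 clearly higher, and the list took 0.00662% and 0.00681% of counts. The defining genes elt-2 of the intestine (5.78 and 14.7 FPKM), unc-54 of muscle (49.9 and 34.8) and oma-1 of oocytes (236 and 191) were detected on both days. No gene marks the number of days at 4°C, so the day labels could not be checked against the data.

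Position and length of the called genes were uneven. On chromosome V 4.40% of genes with 10 counts were clearly higher and 7.10% clearly lower, on chromosome X 3.45% and 5.82%, and on chromosomes I and III 1.223% and 2.04% and 1.14% and 2.56%. The hsp-16, pud and histone clusters all lie on V. The median log2 difference was −0.02 for coding lengths under 300 nucleotides, −0.08 from 300 to 600, 0.02 from 600 to 1200, 0.11 from 1200 to 2400 and 0.15 above. Among genes with 10 counts and under 300 nucleotides, clear rises made up 5.76% and clear falls 6.43%. Above 2400 nucleotides these shares were 2.66% and 2.46%. The part of coding length in the medians of the lists and in their shares of clear calls was not tested.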

How the data were processed

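Ribosome footprints of 5 conditions, with 2 samples each, were deposited as 1 table of FPKM per transcript in which the authors had pooled the replicates; the sources used here do not say whether they were summed or averaged, and if averaged, the counts may be too low and their intervals too wide. Per the labels and the study's methods, reads were trimmed with fastp 0.23.4, aligned with STAR 2.7.11b to WBcel235 and summarised with ORFik. The study's methods name DESeq2 1.42.1 for estimating expression, and it was not run again here. A column without a sample in the series (1 in all) was not used. Groups came from sample titles; the day 5 samples carry the treatment tag of day 3.

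FPKM was multiplied by coding length, stop codon included (Ensembl release 115), and divided by the value of 1 count, which gave whole counts for 100% of values in each column, to within 0.01 of a count or, above 100 counts, 0.01% of the value. These totals sum over all transcripts, so a footprint in several transcripts enters several times, and list shares use 1 transcript per gene over that total. Whether counting used strand is not given; 63 kept genes have coding sequence in common with a neighbour, and 145 carry the same counts as another gene and are not separate measurements. Shares and ratios have 95% exact binomial or Wilson intervals, and these and the floor of 3 counts cover counting error only. The calls were checked on simulated counts with known changes. Those counts held counting error only, so the check does not cover spread between animals or replicates. Python 3.11.15, pandas 2.3.3, SciPy 1.17.1 and statsmodels 0.14.6 were used.

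No replicate values exist in the table, so no differential test was made. The comparison, the 71 gene lists and the rule for named genes were chosen with earlier results of these data known. The rule took the 20 rises and 20 falls farthest from 1 by their interval that kept 2-fold under each pseudocount and scaling. It also took up to 6 members with the most counts and up to 6 clear calls of each list. The genes named by the study and the 6 most counted genes were added. Not every gene that the rule reaches is printed. A few genes outside the rule, chosen after their values were seen, are said to be so or complete a group. Alternatives varied the pseudocount, the filter, the scaling, the transcript and the depth.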

Additional observations from a re-analysis of the deposited data

How the results depend on the processing

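No paired analysis was possible because the table holds 1 pooled column per condition, and leaving out a replicate was not run for the same reason. Genes at least 2-fold higher numbered 535, against 1059 of 15032 with no filter on low values, 185 of 6428 with a mean of at least 5 FPKM and 282 of 8144 with at least 10 counts. Genes at least 2-fold lower numbered 674, against 1081, 358 and 428 under those 3 filters. Clearly higher genes numbered 205, against 136 with the 5 FPKM filter, and stayed within 1.5-fold of the main count under the other alternatives, 183 at the lowest. Clearly lower genes numbered 334 and stayed between 270 and 379. Of the 539 clear calls, 406 stayed clear calls with the 5 FPKM filter, which tests fewer genes, 495 with the deeper column thinned to the depth of the other, and at least 497 under the other alternatives. The 3 scaling alternatives shifted all genes by 0.04, 0.07 and 0.03 on the log2 scale. Of 5652 values for 519 named genes, 48 moved and 0 reversed; of 1562 values for the lists, 47 moved and 0 reversed. Depth limits genes of few counts: at a coding length of 1000 nucleotides 1 count was worth 0.376 FPKM on day 1 and 0.335 on day 3.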

Other observations

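Some gene families outside the lists, picked after their values were seen, also had several calls. The phat genes, which encode small secreted peptides of the pharyngeal glands, had 3 clear rises and no clear fall among 7. phat-7 had 99.1 FPKM at 20°C, 19.1 on day 1, 44.5 on day 3 and 42.9 on day 5, and phat-3 had 23.8, 6.04, 24.2 and 20.1, so both were again higher on day 3 after a lower value on day 1. phat-6, which was not called, had 8.57 and 13.1 FPKM on days 1 and 3.

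The aldehyde dehydrogenases had 6 clear falls and no clear rise among 12, with a median log2 difference of −0.999 that rests partly on alh-8 of the propionate list. alh-9 had 100.2 FPKM at 20°C, 78.0 on day 1, 26.1 on day 3 and 22.9 on day 5 (2.99-fold, 2.43 to 3.71), and alh-1, the most abundant of those not called, had 111 and 120. Of 8 fatty acid binding proteins 3 were clearly lower, lbp-5, lbp-6 and lbp-7, while lbp-9, the most abundant, had 4831 and 4573 FPKM. Galectins, which bind sugars, differed from each other: lec-8 fell from 1370 to 448 FPKM (3.05-fold, 2.80 to 3.33), lec-2 rose from 415 to 854 (2.06-fold, 1.90 to 2.22) and lec-6 had 1508 and 1427.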
